A study of Homo sapiens with 4 samples.

Results

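The golgins examined here are 9 genes: GOLGA1, GOLGA2, GOLGA3, GOLGA4, GOLGA5, GOLGB1, GOLGA8A, GOLGA8B and GCC2. They were matched by symbol to 9 of the 60719 Ensembl gene identifiers in the count tables. The set was proposed with results of the d27 against WT comparison in view. The golgins' values in that comparison are therefore a description and carry no test of their own. The material was SK-N-AS, an established line of human neuroblastoma cells, transfected a day earlier with V5-tagged KIF5A, the kinesin-1 motor subunit typical of neurons, and the RNA was what came down on anti-V5 beads. One construct was wild-type (WT) and the other the mutant that the labels name d27, which the series title places among mutations linked to amyotrophic lateral sclerosis. Each had 2 precipitates, called replicates 1 and 2 here as in the labels. All 4 libraries come from cells of the same line that carry their own KIF5A besides the transfected construct, and no input or mock precipitate is used here. Every value is thus a comparison between precipitates and not an enrichment over background.

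Golgins are long coiled-coil proteins that stand out from the Golgi surface like tentacles and catch incoming transport vesicles. Some are held by small GTPases of the ARL, ARF and RAB families, others by a membrane anchor at one end. Kinesin-1 moves vesicles and RNA-protein granules towards the plus ends of microtubules, and Golgi position and shape in neurons depend on microtubule motors.

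GOLGA8A and GOLGA8B, which lie near each other on chromosome 15, have almost the same coding sequence, and this decides which of their reads can be counted. In the longest coding transcripts of GENCODE release 29 (GRCh38), 1893 bases of GOLGA8A aligned with 1899 of GOLGA8B. The alignment held 1890 identical bases, 3 mismatches and a gap of 6 bases, and its longest identical run was 1667 bases. Of the mismatches, C121T and G1789C lie away from the gap (GOLGA8A base, position counted from 1 at the first coding base of GOLGA8A, GOLGA8B base). The 61 bases around each are shown to let the copies be compared, 5′ to 3′ on the coding strand (the minus strand of chromosome 15), with the mismatched base in capitals.
GOLGA8A, chr15:34386843-34386903: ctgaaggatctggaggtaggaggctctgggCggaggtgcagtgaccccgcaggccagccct
GOLGA8B, chr15:34533064-34533124: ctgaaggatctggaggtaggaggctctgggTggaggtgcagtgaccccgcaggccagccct
GOLGA8A, chr15:34381488-34381548: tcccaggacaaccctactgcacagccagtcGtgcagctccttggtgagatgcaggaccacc
GOLGA8B, chr15:34527709-34527769: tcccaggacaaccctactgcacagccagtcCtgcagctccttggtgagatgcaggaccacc
Of the 75-base words in the coding sequence, 89.8% of those of GOLGA8A also occurred in GOLGA8B transcripts, and 89.0% the other way. Over all annotated transcripts of each gene, 62.0% of the words of GOLGA8A and 57.3% of those of GOLGA8B occurred in another gene. A read with more than 1 best alignment is not assigned to a gene in these files, so the counts of both genes rest mainly on the remaining parts of their transcripts and are uncertain.

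The other golgins were far more distinct. No 75-base word of GOLGA2, GOLGA5 or GOLGB1 occurred in another gene's transcripts, and the share was 0.487% for GOLGA3 and 3.29% for GOLGA4. It was 13.4% for GOLGA1, whose exons overlap those of SCAI by 886 bases on the same strand. It was 8.54% for GCC2, with 7.32% found in RGPD5 and in RGPD6. GOLGA4 shares 446 exonic bases with GOLGA4-AS1 on the opposite strand, an antisense gene with 0 and 2 counts in WT and 10 and 14 in d27.

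The depth of the libraries ran from 8142869 gene counts (WT replicate 1) to 18335151 (d27 replicate 1). KIF5A itself took between 9.03% and 14.8% of them in every library. Reads that were assigned to no gene for any reason were 47.6% and 47.3% of all entries in WT and 25.9% and 36.8% in d27. Those aligned to several places, which are part of these, were 23.7% and 22.8% in WT and 9.10% and 17.1% in d27. Both shares were higher in WT, and their part in the golgin values was not tested. Of 10 markers of sympathetic neuroblastoma 8 exceeded 1 CPM in every library, with TH and DBH, enzymes of catecholamine synthesis, the exceptions, as did all 8 markers of mesenchymal neuroblastoma. The summed level was 1201 and 1167 CPM in WT and 1315 and 992 CPM in d27 for the sympathetic markers. For the mesenchymal markers it was 3332 and 3588 CPM in WT and 4818 and 4424 CPM in d27, but these markers did not move as one. FOSL1, an AP-1 factor singled out after its values were seen, was at 166 and 143 CPM in WT and 1917 and 1749 CPM in d27. VIM went from 1809 and 1861 CPM in WT to 1186 and 1340 CPM in d27. FN1 went from 489 and 1059 CPM to 164 and 338 CPM. CD44, YAP1 and SNAI2 were higher in both d27 libraries than in both WT libraries, and PRRX1 and NOTCH2 overlapped between groups. The part of these markers in the golgin values was not tested. Of 5 markers of other cell types, 4 had at most 1 count in any library. The other, the leukocyte gene PTPRC, had 1670, 1561, 1852 and 858 counts, and the summed level of the 5 was 190 and 162 CPM in WT against 101 and 79.9 in d27; its part in the golgin values was not tested.

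Golgin transcripts made up a small part of every library. The 9 genes together held 7960 and 16101 counts in WT and 15193 and 8560 in d27. As a share of gene counts that was 0.0978% and 0.149% for WT, against 0.0829% and 0.0817% for d27. WT replicate 2 was the highest of the 4. Every golgin had at least 69 counts in every library, and all 9 passed the filter on low counts. Per length of exon, GOLGA3 had the highest level, 53.0 CPM per kb as the mean over the 4 libraries (range 40.4 to 77.2), and its range lay above that of every other golgin. GOLGB1 (15.1 CPM per kb), GOLGA2 (13.8), GOLGA5 (10.2), GOLGA4 (7.91) and GOLGA1 (7.17) followed, and the ranges of neighbours in this order overlapped. GCC2 (2.07), GOLGA8A (1.99) and GOLGA8B (1.78) were lowest and overlapped each other. The lengths of GOLGA8A and GOLGA8B include the parts whose reads cannot be placed, so their levels per kb may be too low.

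**Figure D1:**
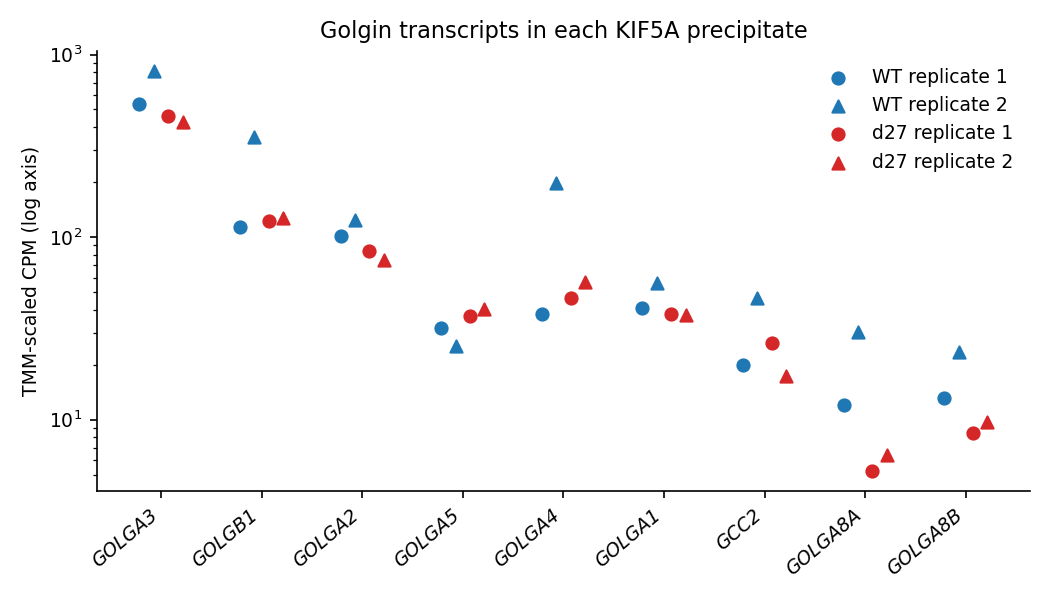
TMM-scaled CPM (log axis) of the 9 golgins in each of the 4 precipitates, WT in blue and d27 in red, circles for replicate 1 and triangles for replicate 2, ordered by mean CPM per kb. WT replicate 2 is the highest library for 8 golgins, with the widest gap for GOLGA4 (198 against 37.9 CPM in WT replicate 1), and the lowest for GOLGA5.

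In the fit across all 14909 tested genes, the d27 over WT log2 fold change was below 0 for 8 golgins and above 0 for 1, with a median of -0.61 beside -0.00043 for all tested genes. GOLGA8A was narrowly past the adjusted threshold of 0.05 in edgeR's quasi-likelihood test, and the other 8 did not pass. Over all genes, 3.70% were called lower in d27, 8.00% higher and 11.7% in either direction. The groups did not overlap for 5 golgins that were lower in d27, where 29.8% of all genes had such a separation, and for 1 that was higher, where 31.4% did. Since the set was chosen on this contrast, these counts describe it and no more. Nothing in the labels says that replicates came from separate cultures, so their spread may be technical, and in such bulk precipitates less RNA per cell and fewer cells cannot be told apart. Without an input library, a lower level of an RNA in the cells and a lower recovery of it with KIF5A cannot be told apart either.

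GOLGA1, GOLGA4 and GCC2 carry a GRIP domain, the module by which such golgins bind the trans-Golgi. GOLGA1 (ENSG00000136935.14, chromosome 9, 124878357 to 124948492, minus strand) was at 41.0 and 56.2 CPM in WT and 37.9 and 37.5 CPM in d27. The groups did not overlap, with a log2 fold change of -0.37 ± 0.27 (SE, n = 2 per group). GOLGA4 (ENSG00000144674.16, chromosome 3, 37243177 to 37366751, plus strand), which tethers vesicles at the trans-Golgi, was at 37.9 and 198 CPM in WT and 46.6 and 56.9 CPM in d27. Only WT replicate 2 was high, and WT replicate 1 was below both d27 libraries. The log2 fold change was -1.19 ± 0.66, but leaving out WT replicate 2 gave 0.47 and leaving out WT replicate 1 gave -1.90. GCC2 (ENSG00000135968.21, chromosome 2, 108448561 to 108509415, plus strand), which acts in transport from endosomes to the trans-Golgi, was at 19.9 and 46.3 CPM in WT and 26.4 and 17.4 CPM in d27. Its groups overlapped as well, and its log2 fold change was -0.59 ± 0.43, with 0.17 when WT replicate 2 was left out and -1.03 when WT replicate 1 was.

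GOLGA5 and GOLGB1 are held in the membrane by an anchor at the carboxy-terminal end. GOLGA5 (ENSG00000066455.13, chromosome 14, 92794231 to 92839963, plus strand), which takes part in vesicle capture within the stack, was at 31.6 and 25.3 CPM in WT and 36.9 and 40.5 CPM in d27. It was the one golgin higher in both d27 libraries than in both WT libraries, and its log2 fold change was 0.45 ± 0.27. GOLGB1 (ENSG00000173230.15, chromosome 3, 121663199 to 121749767, minus strand), or giantin, has the greatest coding length of the 9, 9873 bases over all its transcripts. It was at 113 and 355 CPM in WT and 123 and 127 CPM in d27. Again WT replicate 2 alone was high, and WT replicate 1 was the lowest of the 4. The log2 fold change was -0.91 ± 0.47, and 0.16 or -1.47 with WT replicate 2 or WT replicate 1 left out.

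GOLGA2 and GOLGA3 bind the Golgi from the cytosol. GOLGA2 (ENSG00000167110.18, chromosome 9, 128255829 to 128275995, minus strand), or GM130, is a cis-Golgi matrix protein that binds the stacking protein GORASP1 and the tether USO1. It was at 101 and 124 CPM in WT and 84.0 and 74.6 CPM in d27, with no overlap and a log2 fold change of -0.50 ± 0.24. GOLGA3 (ENSG00000090615.15, chromosome 12, 132768909 to 132828858, minus strand) was the most abundant golgin transcript, at 536 and 815 CPM in WT and 459 and 426 CPM in d27. Its groups did not overlap either, and its log2 fold change was -0.61 ± 0.29, which became -0.25 without WT replicate 2. Counts of these genes ran from 802 (GOLGA2, d27 replicate 2) to 8428 (GOLGA3, d27 replicate 1).

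GOLGA8A and GOLGA8B are GOLGA2-related genes of a family that has expanded on chromosome 15. GOLGA8A (ENSG00000175265.17, chromosome 15, 34379068 to 34437466, minus strand) was at 12.1 and 30.0 CPM in WT and 5.22 and 6.41 CPM in d27, from 106, 289, 96 and 69 counts. Both d27 libraries were below both WT libraries, and the log2 fold change was -1.86 ± 0.47, or 3.63-fold lower. GOLGA8B (ENSG00000215252.11, chromosome 15, 34525207 to 34588503, minus strand) was at 13.2 and 23.4 CPM in WT and 8.43 and 9.67 CPM in d27. It showed the same order of libraries, with a log2 fold change of -1.02 ± 0.38. Without WT replicate 2 these became -1.03 and -0.52 and GOLGA8A was no longer past the threshold, nor was it without d27 replicate 1 (-1.70). The share of reads left out for aligning to several places was higher in WT than in d27, as given above, and its part in these values was not tested.

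Most annotated relatives of GOLGA8A and GOLGA8B were barely counted. Of 26 GOLGA8 and GOLGA6 copies, 7 had 0 counts in all 4 libraries, which allows up to 3 counts per library (0.163 to 0.341 CPM), 11 had between 1 and 9 counts in all, and 8 had at least 10. The 8 were GOLGA6L10 (180 counts over the 4 libraries), GOLGA6L9 (82), GOLGA8H (41), GOLGA8R (31), GOLGA6B (27), GOLGA6C (11), GOLGA8N (11) and GOLGA8K (10). Only the first 3 of these were abundant enough to be tested and none passed. Their log2 fold changes were -1.47 ± 0.62 for GOLGA6L10, -0.58 ± 0.99 for GOLGA6L9 and -0.25 ± 1.01 for GOLGA8H. When the GOLGA8 genes (18 identifiers) were summed as 1 feature, the counts were 260 and 525 in WT and 293 and 196 in d27. The sum adds only reads already assigned to a gene. Reads that aligned to several places had been left out before, so summing cannot bring them back. The log2 fold change of the sum was -1.30 ± 0.35, and it fell just short of the threshold, so that no golgin was called by edgeR in that fit. With GOLGA8A and GOLGA8B kept apart, GOLGA8A was called by edgeR and by DESeq2, and 2 of the 9 golgins (GOLGA8A and GOLGA8B) had an unadjusted p under 0.05 in edgeR.

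**Figure D2:**
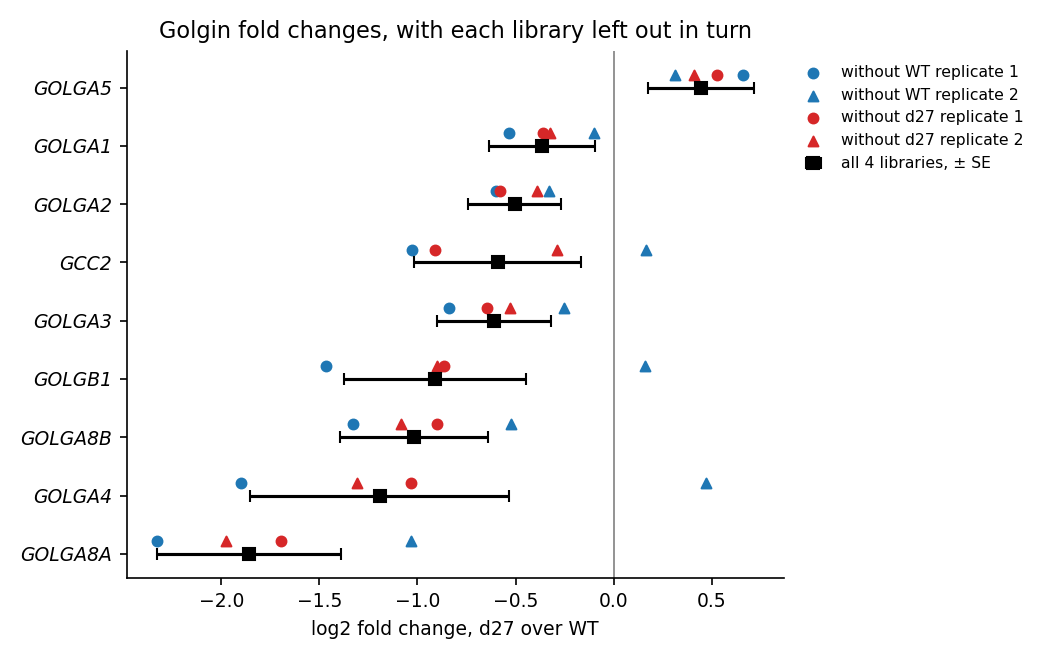
Log2 fold change of d27 over WT for each golgin from all 4 libraries (black squares, bars ± SE) and with each library left out in turn (coloured marks). Without WT replicate 2, GOLGA4, GOLGB1 and GCC2 move to the other side of 0 (0.47, 0.16 and 0.17), while GOLGA8A stays lowest at -1.03.

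The 2 WT precipitates differed from each other for most golgins. WT replicate 2 exceeded WT replicate 1 for 8 of 9 golgins, by 5.24-fold for GOLGA4, 3.14-fold for GOLGB1, 2.49-fold for GOLGA8A, 2.32-fold for GCC2, 1.77-fold for GOLGA8B, 1.52-fold for GOLGA3, 1.37-fold for GOLGA1 and 1.22-fold for GOLGA2. For GOLGA5 the ratio was 0.798. The median ratio was 1.77 over the golgins and 1.01 over the 9947 tested genes with at least 50 counts in each WT library. Of those genes, 0.101% had a ratio at least as high as GOLGA4, 0.473% as high as GOLGB1, 1.28% as high as GOLGA8A and 1.98% as high as GCC2. The share was 6.73% for GOLGA8B, 13.1% for GOLGA3, 19.4% for GOLGA1, 29.1% for GOLGA2 and 74.8% for GOLGA5. Long coiled-coil proteins of other sites were also higher in WT replicate 2, as given below. The d27 libraries were closer, with ratios of replicate 1 to replicate 2 between 0.814 and 1.52. Without WT replicate 2 the median golgin log2 fold change was -0.10, with 5 of 9 below 0. Without WT replicate 1 it was -1.03, with 8 below 0. It was -0.87 without d27 replicate 1 and -0.53 without d27 replicate 2. Golgins called in these fits are not compared here, since calls over all genes also changed with the library left out. The single sample left in a group by such a fit is assumed to vary like the other group.

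**Figure D3:**
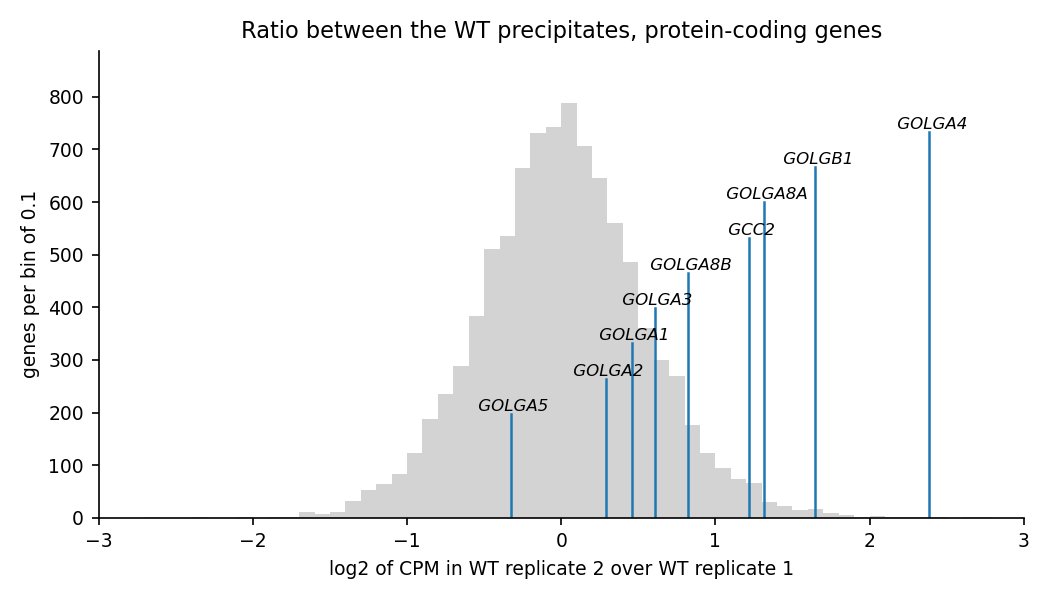
Distribution of the log2 ratio of WT replicate 2 to WT replicate 1 (TMM-scaled CPM) over 9433 protein-coding genes with at least 50 counts in each WT library (grey, genes per bin), with the golgins as blue lines of arbitrary height. GOLGA4 and GOLGB1 lie at the far right, at 2.39 and 1.65, and GOLGA5 is left of 0.

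Fold changes across all genes varied with the length of the coding sequence, and golgins are long. When tested protein-coding genes were split by coding length into 5 classes of nearly equal size, the median log2 fold change was 0.43 in the shortest class (up to 872 bases), 0.40, 0.24 and -0.053 in the next, and -0.61 in the longest (2762 bases and over). In the longest class 1.30% of genes were called higher in d27 and 14.1% lower, against 18.9% and 1.95% in the shortest. The longest class holds 5 golgins. GOLGA2 (-0.50), GOLGA3 (-0.61) and GCC2 (-0.59) were at or above the median of that class, and GOLGB1 (-0.91) and GOLGA4 (-1.19) below it. The class before it holds the other 4, of which GOLGA8A (-1.86), GOLGA8B (-1.02) and GOLGA1 (-0.37) were below its median of -0.053 and GOLGA5 (0.45) above it. The longest class also had the highest median ratio of WT replicate 2 to WT replicate 1, 1.21, where the shortest had 0.878. Leaving out WT replicate 2 gave the longest class a median log2 fold change of -0.40. Across the 9 golgins alone, coding length and log2 fold change had a Spearman rho of 0.00. That value includes GOLGA8A and GOLGA8B, whose counts are uncertain and whose coding lengths were the shortest (2061 and 2067 bases). Of the others, GOLGA5 (0.45) and GOLGA1 (-0.37) were shortest and GOLGA4 (-1.19) and GOLGB1 (-0.91) longest. GOLGA2, GOLGA3 and GCC2 lay between them in length and in fold change. A rho without the GOLGA8 pair was not computed.

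With an offset per library for GC content and coding length, an alternative chosen after seeing the data, the median golgin log2 fold change moved from -0.61 to -0.088, with 6 of 9 below 0. GOLGB1 became 0.21, GOLGA3 0.032, GCC2 -0.014, GOLGA2 -0.088 and GOLGA4 -0.35. The GOLGA8 pair moved little, GOLGA8A to -1.85, still past the threshold, and GOLGA8B to -1.0, and GOLGA5 stayed at 0.47. An offset for GC content and exon length in place of coding length left GOLGB1 at -0.82, GOLGA4 at -1.20 and GCC2 at -0.57 and took GOLGA3 to -0.25. The part of length in the golgin values was not tested further.

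**Figure D4:**
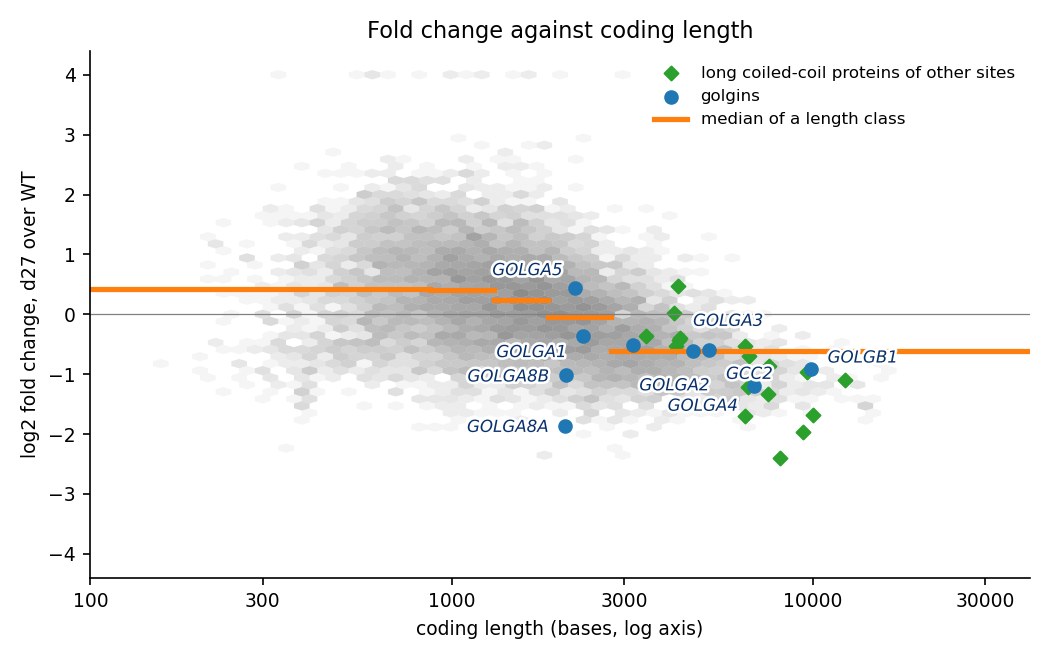
Log2 fold change of d27 over WT against coding length (bases, log axis) for tested protein-coding genes (grey, darker where there are more genes; values beyond ±4 are drawn at the limit), with the golgins in blue, 17 long coiled-coil proteins of other sites in green and the median of each of the 5 length classes in orange. The orange medians fall from 0.43 to -0.61, and GOLGA8A and GOLGA8B lie well below the median of genes of their length.

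Long coiled-coil proteins of other sites were taken as a list for comparison. For the main fit of all 4 libraries, the shares over all tested genes were 3.70% called lower and 8.00% higher, here and for the lists below. These shares do not hold for counts from other fits. With the offset for GC content and coding length, 991 of 14909 genes were called higher and 540 lower. With library totals, 889 were higher and 285 lower. Calls over all genes also changed widely with a library left out, so list counts from those fits have no share beside them. Of 17 tested, 4 fell, none rose and 13 did not pass, with a median log2 fold change of -0.87 and a median coding length of 6610 bases. WT replicate 2 was above WT replicate 1 for every gene of this list. The gap was narrowest for ROCK1 (105 and 107 CPM in WT replicates 1 and 2) and widest for CENPE (52.5 and 354 CPM), both named after their values were seen. NUMA1, which organises spindle poles, fell from 228 and 413 CPM to 82.6 and 116 CPM (log2 -1.70 ± 0.34 SE, edgeR adjusted p = 0.0245). The centrosome proteins CEP250 (-1.33 ± 0.30, edgeR adjusted p = 0.0328) and PCNT (-1.68 ± 0.38, edgeR adjusted p = 0.0330) fell as well, as did CEP350 (-0.97), named after its value was seen. Without WT replicate 2 or without d27 replicate 1, 1 of the 17 fell (NUMA1), and without WT replicate 1, 11 fell. With the offset for GC content and coding length the median was -0.044, none fell and 1 rose.

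Other tethers of the golgin type had fold changes on both sides of 0. Of 11 tested, 1 rose, none fell and 10 did not pass, beside 8.00% of all genes called higher and 3.70% lower. The median log2 fold change of the 11 was -0.26. The one that rose was GCC1, like GCC2 a GRIP-domain golgin, with 37.1 and 44.7 CPM in WT and 80.3 and 80.2 CPM in d27. Its log2 fold change was 0.97 ± 0.24 (edgeR adjusted p = 0.0421), and the call was lost without d27 replicate 1, without d27 replicate 2 and with library totals in place of TMM. GCC1 thus lay higher in both d27 libraries, while GCC2 overlapped between groups; the difference between them was not tested. TRIP11, a long golgin of the cis-Golgi with 5957 coding bases, is named after its values were seen. It was at 45.4 and 117 CPM in WT and 35.4 and 34.8 CPM in d27, and its log2 fold change of -1.21 ± 0.42 did not pass.

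Small GTPases hold many golgins in place and have short coding sequences. Of 23 GTPases and their regulators, with a median coding length of 664 bases, 6 rose, none fell and 17 did not pass, with a median log2 fold change of 0.69. RAB1B, which recruits tethers to the cis-Golgi, rose from 84.8 and 74.6 CPM to 258 and 269 CPM (1.73 ± 0.23, edgeR adjusted p = 0.00944). ARF1, which drives COPI coat assembly, rose from 270 and 245 CPM to 771 and 751 CPM (1.56 ± 0.25, edgeR adjusted p = 0.0138), and RAB2A by 1.24 ± 0.27 (edgeR adjusted p = 0.0290). ARF4 (1.44), named after its value was seen, was also among the 6. With WT replicate 1 left out 12 rose, with WT replicate 2 left out 3, with d27 replicate 1 left out 2 and with d27 replicate 2 left out 9. RAB2A was not called without WT replicate 2 or d27 replicate 1. With the offset for GC content and coding length the median was 0.27 and 3 rose, without RAB2A (0.70), and with library totals 3 rose. ARL1, the GTPase that GRIP domains bind, named after its values were seen, was at 22.3 and 12.3 CPM in WT and 36.3 and 24.1 CPM in d27 and did not pass (0.81 ± 0.38).

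Of 11 stacking and matrix partners 4 rose, 1 fell and 6 did not pass, with a median log2 fold change of 1.12. GOLPH3L rose by 1.57 ± 0.29 (edgeR adjusted p = 0.0185). GOLGA7, a palmitoyltransferase partner that shares the golgin symbol but is no coiled-coil tether, rose by 1.15 ± 0.26 (edgeR adjusted p = 0.0323), and the stacking protein GORASP2 by 1.51 ± 0.35 (edgeR adjusted p = 0.0352). TMED2 (1.18) also rose and MYO18A, a myosin that binds GOLPH3, fell (-1.30), both named after their values were seen. Without WT replicate 2 or without d27 replicate 1, 2 of the 11 rose and none fell, and without WT replicate 1, 7 rose. GOLGA7 was not called without d27 replicate 1, nor GORASP2 without WT replicate 2. With the offset for GC content and coding length the median was 0.60, 2 rose, none fell and GOLGA7 (0.65) did not pass, and with library totals 2 rose and 1 fell.

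**Figure D5:**
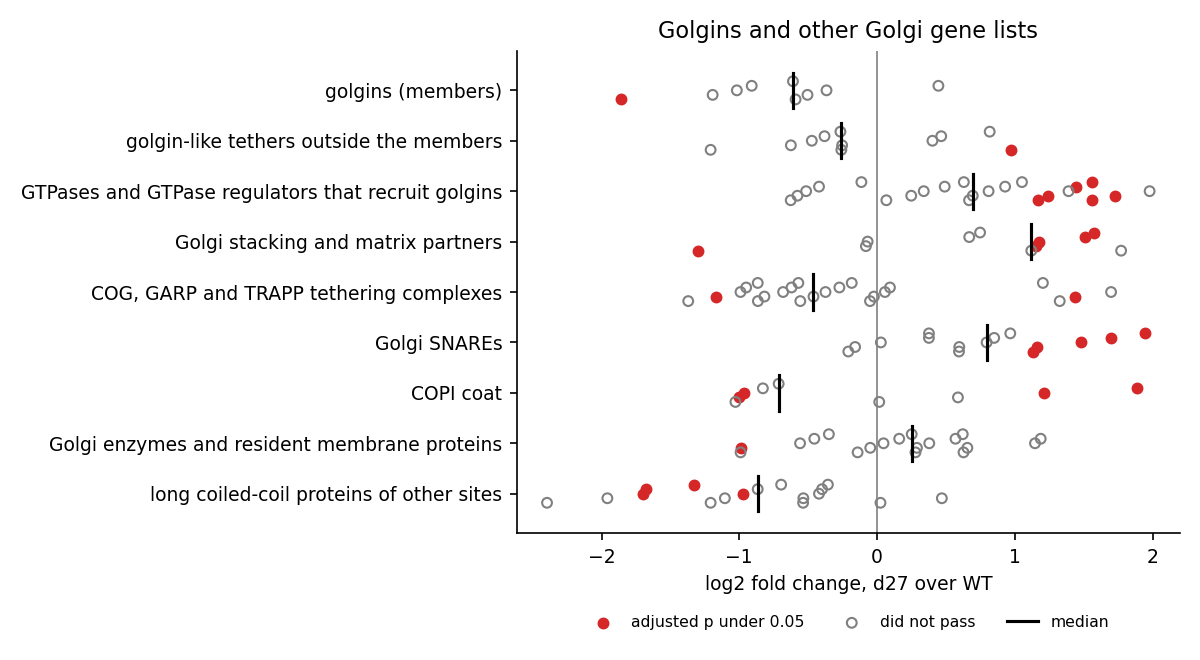
Log2 fold change of d27 over WT for the golgins, 7 lists of other Golgi genes and the long coiled-coil proteins of other sites, 1 point per tested gene, red where the adjusted p was under 0.05, with each list's median as a black bar. The medians of the GTPases, stacking partners and SNAREs lie at 0.69, 1.12 and 0.80, and those of the golgins and of the other coiled-coil proteins at -0.61 and -0.87.

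Among 15 Golgi SNAREs, the proteins that fuse the vesicles golgins catch, 5 rose, none fell and 10 did not pass, with a median log2 fold change of 0.80 and a median coding length of 770 bases. YKT6 rose from 183 and 120 CPM to 593 and 574 CPM (1.95 ± 0.29, edgeR adjusted p = 0.0113), BET1L by 1.48 ± 0.24 (edgeR adjusted p = 0.0144) and VAMP4 by 1.70 ± 0.31 (edgeR adjusted p = 0.0184). SEC22B (1.16) and STX10 (1.13), named after their values were seen, rose too. Leaving out any 1 library but WT replicate 1 left 3 of the 15 called, and VAMP4 was not called without d27 replicate 1. The offset for GC content and coding length gave a median of 0.30 with 3 called, and library totals gave 3 called.

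Of 9 COPI coat subunits 2 rose, 2 fell and 5 did not pass, with a median log2 fold change of -0.71. COPZ1, a small subunit, rose by 1.89 ± 0.29 (edgeR adjusted p = 0.0125) and ARCN1 by 1.21 ± 0.31 (edgeR adjusted p = 0.0447). COPB1 fell, with a log2 fold change of -1.0 ± 0.23 (edgeR adjusted p = 0.0336), as did COPG1 (-0.97), named after its value was seen. Of 23 subunits of the COG, GARP and TRAPP tethering complexes, 1 rose, 1 fell and 21 did not pass (median -0.46). TRAPPC6B rose by 1.44 ± 0.36 (edgeR adjusted p = 0.0415), and TRAPPC12 fell (-1.17 ± 0.27, edgeR adjusted p = 0.0351). Of 19 Golgi enzymes and resident membrane proteins, GLG1 fell (-0.99 ± 0.23, edgeR adjusted p = 0.0351), none rose and 18 did not pass (median 0.25). The calls of COPB1, ARCN1, TRAPPC6B, TRAPPC12 and GLG1 were each lost without WT replicate 2 and without d27 replicate 1. Without WT replicate 1, 4 of the tethering subunits rose and 7 fell, and 4 of the coat subunits fell. With the offset for GC content and coding length the medians were -0.37 for the coat, -0.21 for the tethering complexes and -0.037 for the enzymes. COPB1, COPG1, GLG1 and TRAPPC6B did not pass with it.

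A median profile of the golgins over the 4 libraries lay near those of some other genes. It is not a profile that all golgins share, as GOLGA5 was lowest in WT replicate 2, where this median was highest. Distances of the golgins from it were not computed. The median of the golgins' centred log2 CPM was -0.054 (WT replicate 1), 0.84 (WT replicate 2), -0.24 (d27 replicate 1) and -0.33 (d27 replicate 2). By Euclidean distance over these 4 values, the nearest of 12297 other protein-coding genes was NEMF (distance 0.130), with 57.9 and 105 CPM in WT and 48.3 and 44.6 CPM in d27. ZNF546 (0.140) and LRRC37B (0.149) came next, and 24 genes lay within a distance of 0.2.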

How the data were processed

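RNA from 4 anti-V5 precipitates was sequenced after ribosomal RNA depletion with a strand-marking kit, per the labels' protocols. The authors deposited gene-level read counts without normalization, made with HTSeq on GRCh38 per the submitters' processing notes, which also name DESeq2. Aligner, annotation release, strand setting and versions were not given in the sources used here. All of HTSeq's summary entries (together 25.9% to 47.6% of entries) stayed out of library sizes and tests. Reads carried no molecular identifiers, so count floors cover counting error only.

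Counts were tested with edgeR 4.0.16 (R 4.3.3): TMM scaling, filterByExpr by group (minimum count 10, minimum total 15), glmQLFit (robust) and glmQLFTest on group alone, with Benjamini-Hochberg adjustment over 14909 genes and a threshold of 0.05. SE is the log2 fold change over the square root of F. CPM is TMM-scaled. Positions, lengths and GC came from GENCODE 29 (GRCh38), which held 58444 of 60719 identifiers, and symbols from a table of gene names. Exon and coding lengths count every base that is exonic or coding in any annotated transcript of a gene. They can thus exceed the length of a single coding sequence, such as those aligned for GOLGA8A and GOLGA8B. The fit was also run on simulated counts drawn without a divergent replicate or a length trend, so it was not tested under those features of these data.

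The golgins and the Golgi lists were chosen with earlier results of these data known. The lists came from textbook knowledge. Named were all golgins, called golgin-like tethers, up to 3 called genes per other list by lowest p, GOLGA8 and GOLGA6 copies with at least 10 counts, and the 3 nearest profiles (log2 of CPM plus 0.5), and the text marks genes named outside this rule. Alternatives were DESeq2 1.42.0, its size factors, library totals, other count filters, a replicate block, each library left out, GC and length offsets, and summed GOLGA8 genes. The values of 2 GTPase genes that rose are not reported here.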

Additional observations from a re-analysis of the deposited data

How the results depend on the processing

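The number of golgins called, 1 of 9, was also 1 with DESeq2, its size factors in edgeR, library totals, at least 50 counts in each library, the replicate block and both offsets. It was 2 without a filter, 0 with the GOLGA8 genes summed, and 0 to 5 with 1 library left out. The direction of a golgin changed in 5 cases. With 1 library left out, log2 fold changes ran from -1.90 to 0.47 for GOLGA4, -1.47 to 0.16 for GOLGB1 and -1.03 to 0.17 for GCC2, each above 0 only without WT replicate 2. With the offset for GC content and coding length GOLGA3 was 0.032 and GOLGB1 0.21. The cause was not tested. Over all genes the 1743 calls (1192 higher, 551 lower) became 2862 without a filter, 2789 with DESeq2 and 768 to 4851 with 1 library left out. With library totals 889 were higher and 285 lower. The 28 calls among the Golgi and coiled-coil lists became 14 with library totals, 46 without a filter, 43 with at least 50 counts in each library, 47 with DESeq2, 14 with the coding-length offset and 11 to 62 with 1 library left out. The labels do not say that a replicate number marks a shared culture or day. With 2 libraries per group the deviations mirror each other, so same-numbered libraries give 1 correlation, 0.0962, which does not settle the pairing. With the replicate block there were 3575 calls over all genes and 56 in the lists. With words of 50 and 100 bases, 69.0% and 56.7% of GOLGA8A words and 65.4% and 51.9% of GOLGA8B words occurred in another gene. Read length is not given in the sources used here, and 2 libraries per group limit every value.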
